A study of Mus musculus with 2 samples.

Results

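The regions described here are closely spaced pairs of Sox6 peaks in mouse rib chondrocytes: neighbouring peaks on chromosomes 1 to 19 whose centres lie 500 bp apart or less and which are each under 400 bp wide. The rule found 5384 pairs among 77731 pairs of neighbours on the autosomes, 6.93% of them. Their members are 10100 of the 77750 autosomal Sox6 peaks, and of 79107 Sox6 peaks in all. Members were selected on the positions and widths of the Sox6 peaks, so spacing and width are given as descriptions. The Sox9 list had no part in the choice.

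Chromatin immunoprecipitation with sequencing (ChIP-seq) with an antibody to Sox6 was done on 1 sample of primary rib chondrocytes from wild-type, untreated ICR mice at postnatal day 1, taken so that proliferating and prehypertrophic cartilage was kept. The only other sample is input DNA of the same kind of cells, made without antibody. Chromatin had been sheared to fragments of 100 to 600 bp. A second list of 23865 Sox9 peaks, 23615 of them on autosomes, was derived by the authors from 2 earlier Sox9 ChIP-seq samples of rib chondrocytes, of mice whose strain and age are not stated. How many animals gave cells for either list is not stated, nor whether animals were pooled. No expression or read count was given with the lists, so the identity of the cells could not be checked against markers and sequencing depth is unknown.

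SOX9 is the transcription factor that commits cells to cartilage and drives the genes of its matrix. SOX6, with its relative SOX5, belongs to the SOXD group, which has no activation domain of its own and helps SOX9 at chondrocyte enhancers. Both bind DNA through an HMG box, which grips the minor groove and bends the helix. SOXD proteins form dimers through a coiled coil and prefer paired sites, and SOX9 can bind paired inverted sites as a dimer. Such paired motifs lie within a few bases of each other and would fall inside 1 peak, so the peak pairs described here are a different, larger scale of pairing.

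Most close pairs carried no Sox9 peak, and where Sox9 was present it mostly sat on a single member. A Sox9 peak overlapped neither member by even 1 bp in 4325 of 5384 pairs, or 80.3% (95% exact binomial interval 79.2 to 81.4). It overlapped 1 member in 909 pairs, 16.9% (15.9 to 17.9), and both members in 150 pairs, 2.79% (2.36 to 3.26). In 84 of these 150 a single Sox9 peak touched both members, and the share with Sox9 on both was 1.43% when 50% of either peak had to be covered and 1.00% when centres had to lie within 100 bp. A Sox9 peak lay wholly in the gap between the members in 33 pairs, 0.613% (0.422 to 0.860), and 31 of those had no Sox9 on either member. Over all 73144 neighbouring autosomal Sox6 peaks under 400 bp wide, whatever their distance, the shares were 59.7% for neither, 33.9% for 1 member, 6.41% for both and 6.44% for a Sox9 peak between, the last in gaps that are mostly far longer. Counted by peak, 1174 of the 10100 members had Sox9, 11.6% (11.0 to 12.3), against 16881 of the 67650 other autosomal Sox6 peaks, 24.95% (24.6 to 25.3), and 23.2% of all autosomal Sox6 peaks. Members were a median of 148 bp wide and other peaks 151 bp. The other peaks had no width limit and include the 2372 autosomal Sox6 peaks of 400 bp or more, which cannot be members. There is 1 list per factor, so no difference between shares could be tested over samples. The intervals cover counting error only and treat peaks as independent, which neighbours are not.

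The centres of a pair were a median of 369.5 bp apart, with quartiles at 294.5 and 435.5 bp and a smallest distance of 80 bp. Pairs grew more frequent with distance: 222 had centres 200 bp apart or less, 469 lay over 200 to 250 bp, and 1029 lay over 450 to 500 bp. The limit of 500 bp fell on the shoulder of this rise and not at a natural break. Over all widths the Sox6 neighbours were most frequent at over 500 to 600 bp, with 2320 of them, against 2236 at over 400 to 500 bp and 1207 at over 1000 to 1100 bp. In the Sox9 list the highest bin was already over 200 to 300 bp, with 319 neighbours. Just inside the limit, at over 475 to 500 bp, there were 496 pairs, of which 71.8% had Sox9 on neither member. Just outside it, at over 500 to 525 bp, there were 542, with 71.4%. The widest member measured 399 bp, and the neighbours left out for width began at 400 bp.

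**Figure D1:**
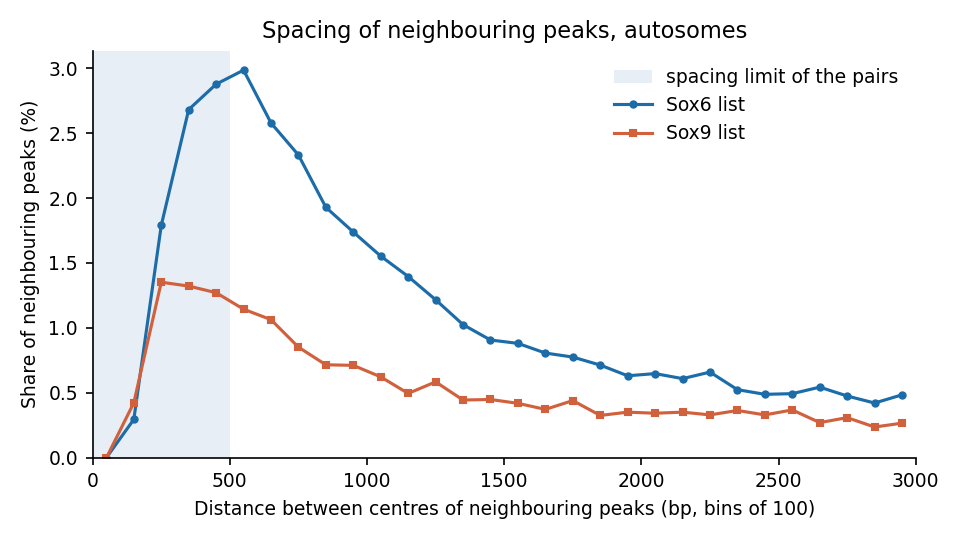
Share of all neighbouring autosomal peaks (y axis, %) by distance between their centres (x axis, bp, bins of 100 bp, shown to 3000 bp) for the Sox6 list (circles) and the Sox9 list (squares), with the spacing limit of 500 bp shaded. Sox6 neighbours were most frequent just beyond the limit, at 2.98% in the bin from 500 to 600 bp, and Sox9 neighbours at 1.35% in the bin from 200 to 300 bp.

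Between the edges of the members there was a median gap of 207 bp, with quartiles at 130 and 282 bp. In 280 pairs, 5.2%, the members overlapped each other. From the first to the last base a pair covered a median of 529 bp, with quartiles at 451 and 600 bp, so that most pairs were no longer than the longest sheared fragments. Whether the peaks of a pair come from separate bound sites or from 1 site called as 2 peaks cannot be told apart from positions alone. Most pairs stood by themselves: 4150 shared no member with another pair, and the 5384 pairs formed 4716 chains, of which 484 held 3 peaks, 67 held 4 peaks and 15 held more.

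The 3 longest chains had no Sox9 peak on any member or in any gap. Over all close pairs, 11.6% of members had Sox9 and 0.613% of pairs had a Sox9 peak between. The chains hold only 19 peaks, too few to set them apart from these shares. The longest had 7 Sox6 peaks on chromosome 7 from 86257905 to 86260474 (mm9), over 2570 bp, with centres 282.5 to 488 bp apart. A chain of 6 on chromosome 6 from 51415264 to 51417336 covered 2073 bp. Another chain of 6, on chromosome 12 from 112812265 to 112814028, was tighter, with a median of 259.5 bp between centres. All 19 of their peaks stood at place 30600 or later in the Sox6 list. Place here means the row of a peak in the list as deposited, whose order is not documented. No gene was placed at any pair: the gene tables at hand follow GRCm38, whereas the Sox6 peaks follow mm9.

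Pairs were found on every autosome at similar rates, from 61.2 per 1000 Sox6 peaks on chromosome 14 to 75.9 on chromosome 7. The share of pairs with Sox9 on at least 1 member ranged from 15.5% on chromosome 12 to 25.9% on chromosome 19, around a median of 19.1%. Counted over all Sox6 peaks of a chromosome, the share with Sox9 ranged from 21.6% on chromosome 12 to 24.6% on chromosome 7, around a median of 23.4%. Of all pairs, 84.9% lay in runs of 3 or more Sox6 peaks with neighbouring centres within 12.5 kb, as did 63.3% of all autosomal Sox6 peaks. A run with many peaks has more neighbours at every distance, so part of this follows from the rule. Pairs were spread over 4016 runs, of which 3158 held a single pair and 47 held 5 or more.

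The 5 runs with the most pairs held 85 pairs. In 78 of them neither member had Sox9, and over all close pairs the share was 80.3%. Each run had Sox9 peaks. In the order below, Sox9 met 21 of 106, 7 of 69, 7 of 103, 5 of 65 and 23 of 111 Sox6 peaks. Over all autosomal Sox6 peaks the share was 23.2%. On chromosome 4 from 62820119 to 63004733 there were 21 pairs among 106 Sox6 peaks, and 4 of them had Sox9 on 1 member. On chromosome 1 from 71622872 to 71738235 there were 19 pairs among 69 Sox6 peaks, the highest rate of the 5 at 27.5 pairs per 100 peaks, and 1 had Sox9 on a member. The run on chromosome 3 from 113729632 to 113902839 held 17 pairs, of which 2 had Sox9 on 1 member. Neither of the remaining runs had a pair with Sox9. The run on chromosome 6 from 52100880 to 52176324 had 14 pairs and 7 Sox9 peaks, and the run on chromosome 10 from 82438607 to 82647670 had 14 pairs and 30 Sox9 peaks. In the latter, 23 Sox6 peaks of the run met a Sox9 peak, and none of the 23 belonged to a pair.

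Sox9 on a pair became more common as the members moved apart. A Sox9 peak was on at least 1 member in 13.1% (8.93 to 18.2) of the pairs with centres 200 bp apart or less, in 15.2% (12.9 to 17.7) at over 300 to 350 bp and in 28.9% (26.1 to 31.7) at over 450 to 500 bp. This rise was carried by pairs with Sox9 on 1 member, which went from 6.76% (3.83 to 10.9) to 25.9% (23.3 to 28.7) between the same ends. Pairs with Sox9 on both members went the other way up to 400 bp, from 6.31% (3.49 to 10.4) at 200 bp or less to 1.5% (0.842 to 2.46) at over 350 to 400 bp, and stood at 2.92% (1.98 to 4.14) at over 450 to 500 bp. Neighbours beyond the limit continued the rise. At over 500 to 1000 bp 29.5% had Sox9 on 1 member and 3.85% on both, and at over 1000 to 2000 bp the shares were 36.6% and 7.02%.

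**Figure D2:**
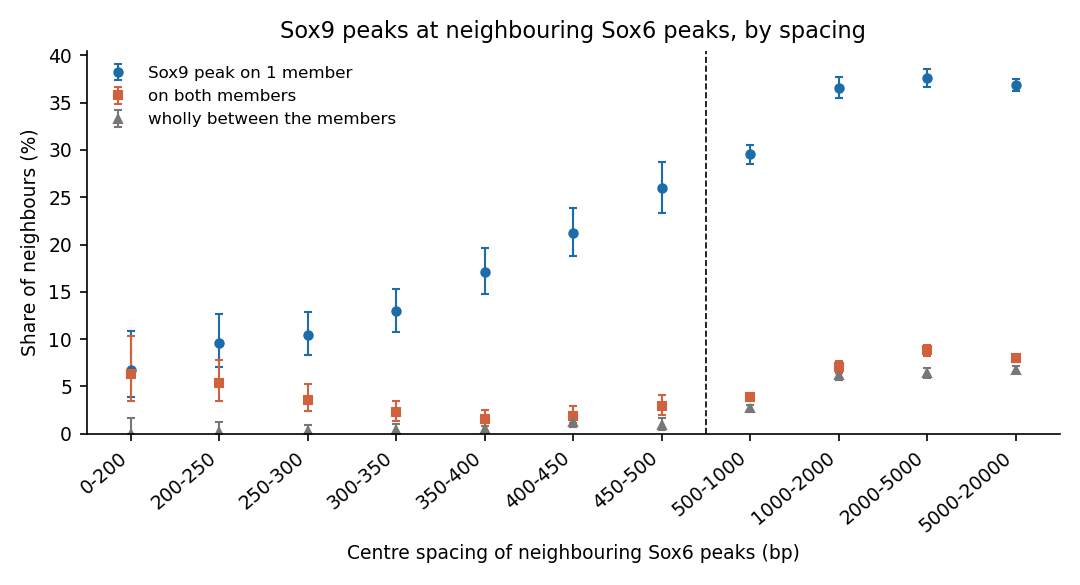
Share of neighbouring Sox6 peaks under 400 bp wide (y axis, %) with a Sox9 peak on 1 member (circles), on both (squares) or wholly between them (triangles), by centre spacing (x axis, bp, uneven bins), with exact 95% binomial intervals; pairs of the rule are left of the dashed line. The share with Sox9 on 1 member climbs from 6.76% to 25.9% within the rule and reaches 36.6% at 1000 to 2000 bp.

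List place moved together with spacing. The earlier-listed member of a pair had a median place at 63.0% of the Sox6 list in pairs 200 bp apart or less and at 32.9% in pairs over 450 to 500 bp apart. Among other autosomal Sox6 peaks the share with Sox9 fell along the list, from 71.1% in its first 10% to 5.51% in its last 10%. When the shares of those other peaks were weighted to the list places of the earlier-listed members, in 20 bins, they gave 13.8% for pairs 200 bp apart or less and 30.2% for pairs over 450 to 500 bp apart. The earlier-listed members themselves had Sox9 in 11.3% and 26.6%. The other peaks have no pair spacing, and their weighted shares differ only through the list places used. Whether list place accounts for the rise in the pairs was not tested.

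The members of a pair often differed in list place, and so did neighbours in general. The earlier-listed member stood at a median of 46.3% of the list and the later-listed at 78.9%, and the members were a median of 24.5% of the list apart. The choice of an earlier and a later member sets the order of these medians. Over all 73144 neighbouring Sox6 peaks under 400 bp wide the medians were 28.8% and 70.4%. All members together had a median place of 63.5% against 47.4% for other autosomal peaks. Both members stood in the first 50% of the list in 534 pairs, both in the last 50% in 2416, and 1 in each in 2434. Members stood in consecutive rows of the list in 68 pairs, 1.26% (0.982 to 1.60). No shares over all neighbours are given here to match these counts. The earlier-listed member was the wider in 48.1% (46.8 to 49.5) of the pairs with unequal widths, and the median width was 144 bp for earlier-listed and 152 bp for later-listed members.

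Where Sox9 was on 1 member, it was on the earlier-listed in 792 of 909 pairs, or 87.1% (84.8 to 89.2). In the same pairs it was on the wider member in 51.1% (47.8 to 54.4) of those with unequal widths, and on the member at the lower coordinate in 51.4% (48.1 to 54.7). The share on the earlier-listed member rose with the distance between the places. It was 63.0% (47.5 to 76.8) in the 46 such pairs whose places were 5% of the list apart or less, 81.8% (76.1 to 86.6) in the 225 pairs over 20 to 40% apart, and 99.2% (97.1 to 99.9) in the 247 pairs over 60% apart. A share of 81.1% was found over all neighbouring narrow Sox6 peaks with Sox9 on 1 of them, and 87.8% (86.4 to 89.1) at over 500 to 1000 bp, so a high share was also found among neighbours that are not close pairs.

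The share with Sox9 was lower on both kinds of member than on other Sox6 peaks of like list place. Earlier-listed members had Sox9 in 17.5% (16.5 to 18.5) of the pairs, against 22.5% for other peaks weighted to their places. Later-listed members had it in 4.96% (4.39 to 5.57), against 9.31%. In the first 10% of the list the values were close, with Sox9 on 67.5% (61.5 to 73.1) of 265 earlier-listed members and on 71.1% (70.1 to 72.2) of other peaks. From 50 to 60% of the list Sox9 was on 8.18% (6.36 to 10.3) of earlier-listed members, on 7.63% (5.51 to 10.2) of later-listed members and on 13.5% (12.7 to 14.4) of other peaks. In the last 10% it was on 2.74% (1.94 to 3.76) of later-listed members and on 5.51% (4.96 to 6.10) of other peaks. Both kinds of member were below the other peaks in each of the 10 steps of 10% along the list, although the first 20% of the list held only 25 later-listed members.

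**Figure D3:**
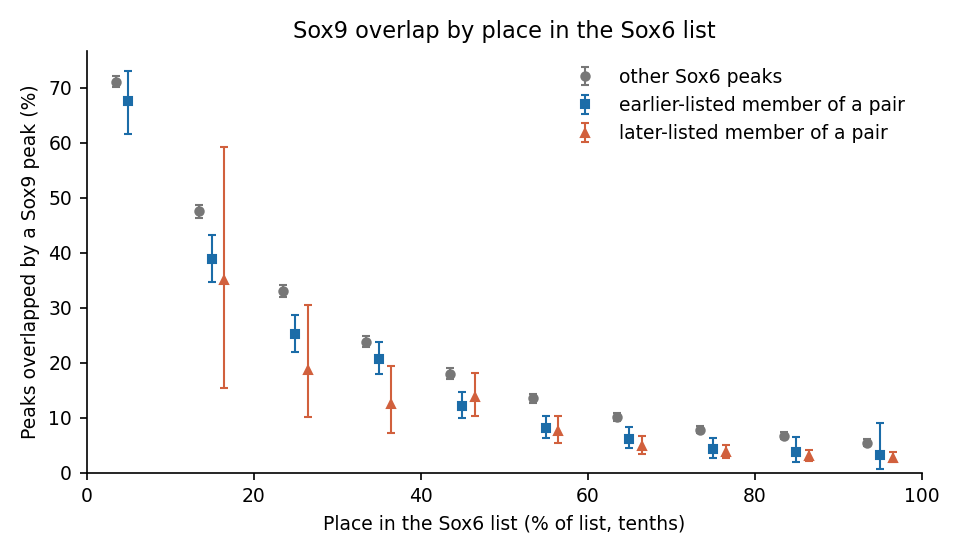
Share of Sox6 peaks overlapped by a Sox9 peak (y axis, %) by place in the Sox6 list (x axis, % of list, steps of 10%), for other autosomal peaks (circles), earlier-listed members (squares) and later-listed members (triangles), with exact 95% binomial intervals; points on under 20 peaks are not drawn. All 3 fall along the list, and both kinds of member lie below the other peaks, as at 50 to 60% of the list with 8.18%, 7.63% and 13.5%.

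The makeup of the pairs also changed with the list place of the earlier-listed member, taken in steps of 25%. In the first 25% of the list, with 1099 pairs, 40.9% (37.9 to 43.8) had Sox9 on 1 member and 3.91% (2.85 to 5.23) on both. In the last 25%, with 662 pairs, these shares were 3.17% (1.97 to 4.81) and 2.27% (1.27 to 3.71). In the steps between, with 1869 and 1754 pairs, Sox9 was on both members in 3.16% (2.41 to 4.05) and 1.88% (1.30 to 2.63). A Sox9 peak lay between the members in 1.27%, 0.856%, 0.114% and 0.151% of the pairs in the successive steps.

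In the 909 pairs with Sox9 on 1 member, the Sox9 centre lay a median of 39.5 bp from the centre of the Sox6 peak it met, with quartiles at 17 and 75 bp. Other autosomal Sox6 peaks with Sox9 had a median of 40 bp, with quartiles at 18 and 75.5 bp. In 42.7% (39.4 to 46.0) of the pairs the Sox9 centre was displaced towards the partner, with a median displacement of -11 bp, that is, away from it. The class itself favours this, since a Sox9 peak reaching the partner would count as lying on both. A median of 229 bp separated the nearest Sox9 edge from the member without Sox9, and in 53 pairs this distance was 50 bp or less. Around the earlier-listed member, 553 Sox9 centres fell within 250 bp on the side away from the partner and 495 within 250 bp on the partner's side. At 250 to 500 bp there were 85 on the far side and 147 on the partner's side, where the later-listed members lay.

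**Figure D4:**
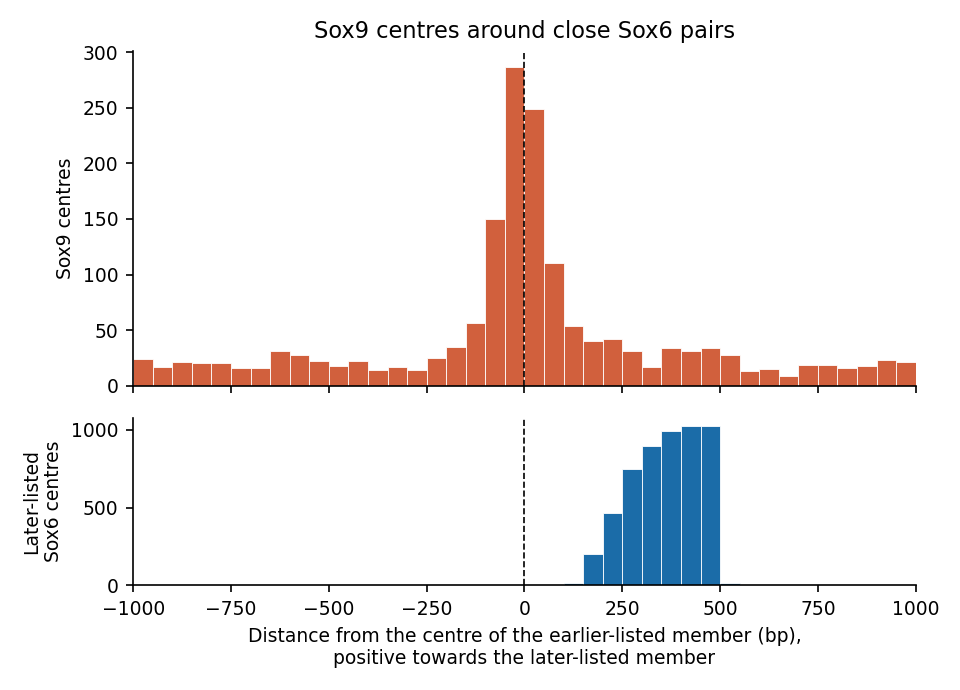
Number of Sox9 centres (upper panel) and of later-listed Sox6 centres (lower panel) by distance from the centre of the earlier-listed member (x axis, bp, bins of 50 bp, positive towards the later-listed member) over 5384 pairs. Sox9 centres gather at the earlier-listed member, with 287 and 249 in the bins on either side of its centre, and only a low rise, to at most 34 per bin, lies at 350 to 500 bp over most of the later-listed members.

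In the 150 pairs with Sox9 on both members, 1 Sox9 peak touched both in 84 and separate Sox9 peaks lay on the members in 66. The bridging Sox9 peaks were wide, with a median of 281 bp against 183 bp for all autosomal Sox9 peaks, and their pairs were tight, with a median centre spacing of 262.25 bp. The class itself favours both, since a bridging Sox9 peak has to span the gap between the members. In 22 of these 84 pairs the Sox6 members overlapped each other. Pairs with separate Sox9 peaks had a median Sox6 spacing of 434.75 bp. The corresponding Sox9 peaks were a median of 416.75 bp apart, and in 46 of 66 pairs the spacings of the factors differed by 100 bp or less. Across these 66 pairs Pearson's r between the spacings was 0.59 and Spearman's rho 0.60. This is a description only, because each Sox9 peak had to overlap its Sox6 peak, which ties the spacings together.

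Sox9 on the member at the lower coordinate went with Sox9 on the other, bridging Sox9 peaks included. The member at the higher coordinate had Sox9 in 24.3% (21.0 to 27.9) of the 617 pairs whose lower member had it, and in 9.27% (8.46 to 10.1) of the 4767 pairs whose lower member lacked it. For neighbours over 500 to 1000 bp apart the shares were 21.4% (19.3 to 23.6) and 18.8% (17.8 to 19.7). The 84 bridged pairs made up 56.0% of the 150 pairs with Sox9 on both. In them a single Sox9 peak is counted on both members, which raises the share of 24.3%. Separate Sox9 peaks lay on the members in 66 of the 150. No share without the bridged pairs is given here, so the shares do not show how far Sox9 goes together beyond bridging. These shares take no account of list place.

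Gaps with room for a Sox9 peak were compared with sequence nearby. In 3159 pairs the gap was at least 183 bp, the median width of autosomal Sox9 peaks, and 30 of these, 0.95% (0.642 to 1.35), had a Sox9 peak wholly inside it. Stretches of the same length starting 500 bp outside these pairs, 1 on each side, held a whole Sox9 peak in 40 of 6318 cases, 0.633% (0.453 to 0.861). By the rule the gaps hold no whole Sox6 peak, whereas the outside stretches may, so these sets are not alike. The difference was not tested. The 33 Sox9 peaks found between members were narrow, with a median width of 115 bp. They lay near the middle of the pair, a median of 25.75 bp from its midpoint, in gaps with a median of 285 bp. The class itself favours narrow and central peaks, since the whole Sox9 peak had to fit inside the gap. By centre alone, a Sox9 centre lay between the Sox6 centres in 535 pairs, of which 389 had Sox9 on 1 member and 115 on both. Of the 4325 pairs with Sox9 on neither member, 405, 9.36% (8.51 to 10.3), had a Sox9 centre within 1000 bp of the midpoint of the pair, and 1877 had one within 10000 bp.

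Examples show these arrangements. On chromosome 4, the pair from 115747554 to 115748077 joined Sox6 peaks 127 and 78 bp wide at places 21774 and 13075, with centres 421.5 bp apart. A Sox9 peak of 278 bp, from 115747689 to 115747966, filled most of the gap and had its centre 0.25 bp from the midpoint. On chromosome 5, Sox6 peaks from 111268694 to 111268816 and from 111269084 to 111269190 flanked a Sox9 peak from 111268824 to 111269055 in the same manner. Another pair, on chromosome 13 from 19610020 to 19610418, held a Sox9 peak of only 43 bp, nearer to the right member. These were the 3 pairs with Sox9 between them whose later-listed member came earliest.

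Pairs with separate Sox9 peaks on both members could match the Sox6 peaks closely. On chromosome 1 the Sox6 peaks ran from 89743700 to 89743756 and from 89743961 to 89744001, with centres 253 bp apart. The Sox9 peaks ran from 89743709 to 89743774 and from 89743938 to 89743993, with centres 13.5 and 15.5 bp from the Sox6 centres. On chromosome 13, Sox6 peaks of 39 and 40 bp starting at 20398129 and 20398328 met wider Sox9 peaks of 130 and 244 bp, whose centres lay 15.5 and 72 bp from the Sox6 centres. The pair on chromosome 9 from 65044081 to 65044498, with places 1766 and 9948, met 3 Sox9 peaks, 1 on the left member and 2 on the right.

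Among the 5 pairs whose later-listed member came earliest, the earliest held the last Sox6 peaks by position on its chromosome. The next lay near the last ones on its own. Chromosome lengths were not used, so distances to the chromosome ends are not given. The earliest, on chromosome 1 from 197067743 to 197068018 at places 230 and 217, had members that overlapped by 116 bp, no Sox9, and no further Sox6 or Sox9 peak beyond it. The next, on chromosome 19 from 61275462 to 61275765, had 3 Sox6 peaks beyond it and Sox9 on its left member. Whether repeats at chromosome ends bear on these calls was not tested. The others lay on chromosome 18 from 14131168 to 14131557, with Sox9 on the left and earlier-listed member, on chromosome 13 as described, and on chromosome 15 from 82980147 to 82980428, with Sox9 on the right and earlier-listed member. The earliest pairs without Sox9, apart from the one on chromosome 1, lay on chromosome 6 from 14850867 to 14851459, at places 10091 and 9600, and on chromosome 11 from 108781736 to 108782171, at places 10663 and 4102.

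The 5 tightest pairs whose members did not overlap had centres 124.5 to 148 bp apart and gaps of 7 to 75 bp. Their members stood at places from 40571 to 75564 of 79107. Members of all close pairs also tended to stand late, with a median place at 63.5% of the list. Sox9 was absent from 4 of the 5, a share like the 80.3% of all close pairs. The tightest, without Sox9, lay on chromosome 6 from 127101759 to 127101990. In the pair on chromosome 7 from 24919072 to 24919360, a single Sox9 peak of 145 bp bridged a gap of 7 bp between Sox6 peaks of 134 and 148 bp.

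**Figure D5:**
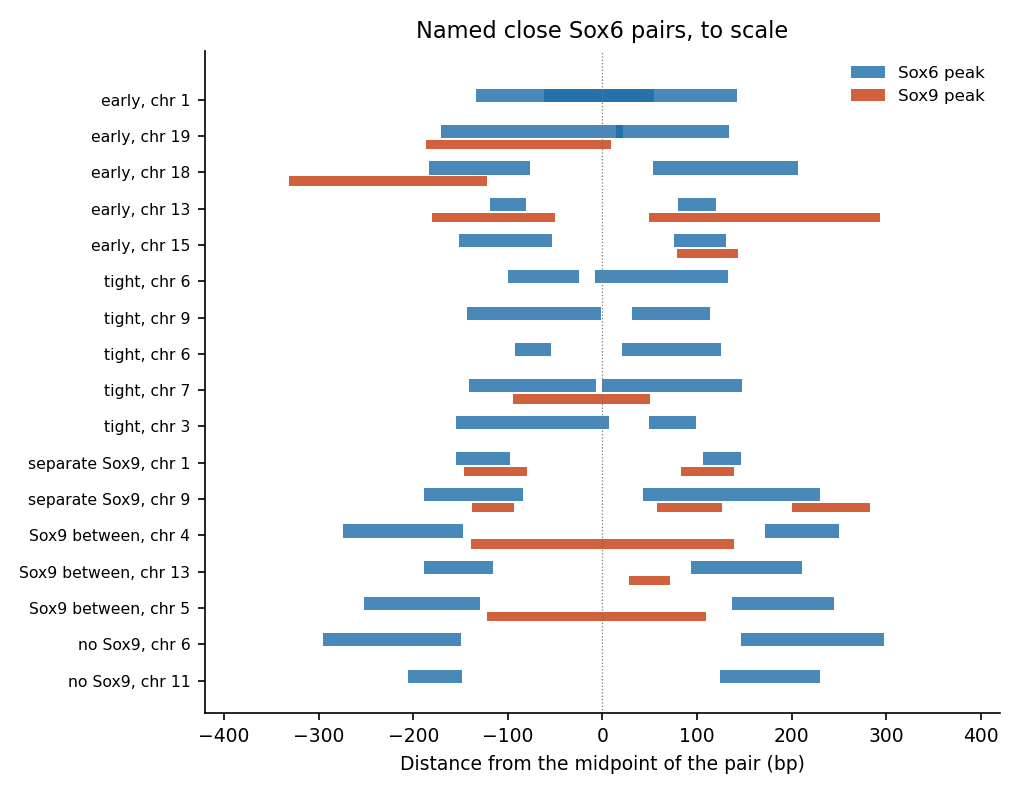
Sox6 peaks (blue, darker where they overlap) and the Sox9 peaks on or between them (orange) of 17 named pairs, 1 per row and to scale, by distance from the midpoint of the pair (x axis, bp). From top to bottom the rows hold the earliest-listed pairs, the tightest, those with separate Sox9 peaks, those with Sox9 between and those without Sox9; a Sox9 peak of 278 bp fills the gap on chromosome 4, and 1 of 145 bp bridges the tight pair on chromosome 7.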

How the data were processed

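Sox6 reads were aligned with Bowtie to mm9, per the submitters' processing notes; the sources used here name no peak caller, threshold or version. Per the series' design text, Sox9 peaks were called again by the authors from 2 earlier samples in the manner of the Sox6 peaks. The build of the Sox9 list is not stated and was taken as mm9. Each deposited list has 3 columns, the chromosome, start and end of a peak, with no score or count, so no peak was compared with input. BED starts are printed counted from 1.

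Neighbours were taken after sorting by start. An overlap was 1 bp or more. A Sox9 peak lay between when it was wholly inside the gap. Exact intervals (Clopper-Pearson, 95%) used scipy 1.17.1 in Python 3.11.15, and figures matplotlib 3.10.9. Counting was tested on simulated pairs. The members, the order of the list as a ranking, and the settings were chosen with earlier results of these data known. Named regions followed a rule: the pairs whose later-listed member came earliest (5 in all, and 3 each of those with separate Sox9 peaks on both members, with Sox9 between and with Sox9 on neither), the 5 tightest without overlap, the 5 runs with most pairs and the 3 longest chains. Alternatives were other limits of spacing and width, removal of overlapping or chained pairs, chromosome X, parts of each list, and stricter overlap. No genome of this build was used, so motifs, genes and sequences were not analysed here.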

Additional observations from a re-analysis of the deposited data

Results flagged for a closer look

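Both results here come from neighbours that the rule leaves out. On chromosome X, 107 pairs met the limits of spacing and width, 79.1 per 1000 Sox6 peaks there against 69.2 on the autosomes, and 12 of them, 11.2% (95% exact binomial interval 5.93 to 18.8), had Sox9 on at least 1 member, against 19.7% (18.6 to 20.8) of autosomal pairs. Sox9 was scarcer on X in general: 13.4% (11.6 to 15.3) of all 1352 Sox6 peaks on X had it, against 23.2% on autosomes, and 14 of the 204 members of pairs on X, 6.86% (3.80 to 11.2). Among the 558 autosomal neighbours within 500 bp that were left out because a peak was 400 bp wide or more, 95 had Sox9 on a member: 61 on 1 member, 10.9% (8.47 to 13.8), and 34 on both, 6.09% (4.26 to 8.41). Among the autosomal pairs of the rule these shares were 16.9% (15.9 to 17.9) and 2.79% (2.36 to 3.26). Sox9 was on neither member in 83.0% (79.6 to 86.0) of the neighbours left out for width. In the pairs of the rule that share was 80.3% (79.2 to 81.4). None of the differences on X or by width was tested, as each factor has 1 list.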

How the results depend on the processing

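No paired analysis was possible because each factor has a single peak list and no result comes from a test. Positions without scores limit every value: pairs cannot be ranked by strength, and depth is unknown. Over 11 settings, 40 of 71 recomputed values stayed within the main interval (for the number of pairs, within 1.5 times). No share had a direction to change. The 40 include the share with Sox9 between under both stricter overlaps, which could not change because that class uses no overlap setting. With centres 250 bp apart or less there were 691 pairs, a median spacing of 216.5 bp, and Sox9 on neither in 85.7%, on 1 member in 8.68%, on both in 5.64% and between in 0.145%, with 73.3% of the Sox9 peaks on 1 member on the earlier-listed. With a limit of 1000 bp there were 13609 pairs, a median of 565.5 bp, and shares of 72.0%, 24.5%, 3.43% and 1.85%. With both members in the first 50% of the list there were 534 pairs, a median of 407.25 bp, and shares of 66.5%, 24.5%, 8.99% and 1.69%, with 75.6% on the earlier-listed. Leaving out members that overlap each other gave a median of 377 bp. Pairs that share no member had Sox9 on neither in 78.7% and on 1 member in 18.1%. Requiring 50% of either peak to be covered gave 82.5% for neither and 1.43% for both, and centres within 100 bp gave 82.9% and 1.00%, so the share with Sox9 on both moved by over 1.5 times with the overlap required. The first 50% of the Sox9 list gave 90.4%, 8.79%, 0.836% and 0.316%. The moves under stricter overlap and under a shorter Sox9 list follow from fewer overlaps being counted; for spacing, chains and list place the cause was not tested.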

Other observations

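The same counts were made from the Sox9 list. Here too, members of close pairs met the other factor less often than all peaks of their list. The same limits of spacing and width gave 954 close Sox9 pairs among 23596 autosomal Sox9 neighbours, 4.04% (95% exact binomial interval 3.80 to 4.30), against 6.93% of Sox6 neighbours. Of these Sox9 pairs, 575 or 60.3% (57.1 to 63.4) had a Sox6 peak on 1 member, 209 or 21.9% (19.3 to 24.7) on both and 170 or 17.8% (15.4 to 20.4) on neither. In 145 of the 209, 1 Sox6 peak touched both Sox9 peaks. Counted by peak, 971 of the 1856 members of close Sox9 pairs met a Sox6 peak, 52.3% (50.0 to 54.6), against 76.7% (76.2 to 77.3) of all autosomal Sox9 peaks. The Sox6 list is longer, so these shares and those of the Sox6 pairs are not on an equal footing. Of the same 1856 Sox9 peaks, 125 touched a member of a close Sox6 pair, 6.73% (5.64 to 7.97), against 1102 of all autosomal Sox9 peaks, 4.67% (4.40 to 4.94). None of these differences was tested, as each factor has 1 list.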
